A study of Mus musculus with 12 samples.

Results

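The genes described here are *Shox2*, the Runx family (*Runx1*, *Runx2*, *Runx3*) and *Cbfb*, which encodes the subunit that all Runx proteins share, 5 of the 36186 gene rows deposited for embryonic mouse forelimb. Rows were taken by gene symbol. *Shox2* and *Runx3* were selected on their values in *aadd* against WT resting libraries, so that difference is given below as a description, with no test. RNA-Seq values were available for 12 libraries from E15.5 zeugopod, the limb segment that forms the radius and ulna, all from a mixed 129/CD-1 background. Resting, proliferative and hypertrophic chondrocytes of WT embryos were each captured in 3 libraries by laser capture microdissection (LCM). In the labels the hypertrophic samples are called hyperproliferative. The other 3 libraries came from *aadd* embryos, homozygous for frameshift alleles in the first exons of *Hoxa9*, *Hoxa10*, *Hoxa11*, *Hoxd9*, *Hoxd10* and *Hoxd11*. The labels give their compartment as resting, whereas the study states that all chondrocytes of the small mutant zeugopod were captured as 1 sample, so genotype and the cells captured cannot be told apart in that comparison. Some perichondrium was included in the captured tissue. The study calls the sets of compartments independent, while the labels tie no library to an embryo, so p-values measure the spread between these sets.

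Runx proteins are transcription factors that bind DNA through a Runt domain, and binding is strengthened by Cbfb, which does not contact DNA itself. Runx2 drives chondrocyte hypertrophy and osteoblast formation, and Runx3 acts with Runx2 in chondrocyte maturation. Runx1 is best known from blood cell formation and is also expressed in early cartilage and in myeloid cells. Shox2 is a homeodomain transcription factor of the proximal and middle limb, and loss of Shox2 delays chondrocyte maturation and shortens the limb bones.

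The rows lie on mouse build mm10. *Shox2* (gene ID 20429) spans chr3:66971727-66981771 on the minus strand and *Runx1* (12394) spans chr16:92601466-92826066 on the minus strand. *Runx2* (12393) spans chr17:44604001-44814797 on the minus strand, *Runx3* (12399) spans chr4:135120645-135177990 on the plus strand and *Cbfb* (12400) spans chr8:105170674-105217988 on the plus strand. The row of *Supt3*, on the opposite strand, overlaps that of *Runx2* by 37627 bp. Use of strand in the counting is not stated, so reads of the overlap cannot be assigned with certainty. *Supt3* stayed between 7.71 and 13.3 NRPKM in all 12 libraries, below every value of *Runx2*. NRPKM is the authors' unit, reads per kilobase of transcript scaled to library size and then normalized further between libraries. Levels of different genes are set side by side on this per-kilobase scale. How RNA amplification and the further step affect such a comparison was not tested.

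The 250 bases before each RefSeq start were taken from RefSeq (GRCm38.p6) for all 5 genes and searched for the Runx core TGTGGT and its reverse complement ACCACA. The windows of *Shox2* and *Runx3* are printed because both genes were low in the mutant, and the site of *Runx2* because it is the other window of the set with a core. Runx cores are in capitals, and the sequences run 5′ to 3′ on the strand of the gene. The *Shox2* window is chr3:66981772-66982021 on the minus strand, the distal *Runx3* window is chr4:135120395-135120644 on the plus strand and the *Runx2* site is chr17:44814690-44814719 on the minus strand.
Shox2: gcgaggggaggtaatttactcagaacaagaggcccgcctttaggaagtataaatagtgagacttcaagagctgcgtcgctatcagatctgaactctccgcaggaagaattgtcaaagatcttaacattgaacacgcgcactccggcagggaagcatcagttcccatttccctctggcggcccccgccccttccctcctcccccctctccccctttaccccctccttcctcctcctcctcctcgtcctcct
Runx3: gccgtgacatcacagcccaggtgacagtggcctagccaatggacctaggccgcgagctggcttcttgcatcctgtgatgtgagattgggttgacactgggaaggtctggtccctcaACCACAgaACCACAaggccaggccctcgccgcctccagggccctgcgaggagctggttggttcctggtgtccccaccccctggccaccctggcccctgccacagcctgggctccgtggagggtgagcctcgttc
Runx2: gtgaggtcacaaACCACAtgattctgtctc

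The distal *Runx3* window held ACCACA at 134 and at 126 bases before the start, and the *Runx2* window held ACCACA at 80 bases before a RefSeq start. That start lies inside the deposited *Runx2* row, so this site is within the span of the row and not before it. Neither form was in the windows of *Shox2*, *Cbfb*, both *Runx1* starts or the second *Runx3* start. Of 32851 mouse promoter windows of the same length, 14% held at least 1 core and 1.27% held 2 or more. Among the windows of genes that were tested the shares were 10.4% and 0.765%. A match in this window is a description of the letters, not of binding.

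Depth was estimated from short gene rows, in which NRPKM takes steps of 1 read. By the size of that step, 1 read on 1 kb was worth 0.309 to 0.53 NRPKM. If NRPKM were plain RPKM, this would correspond to 1890000 to 3240000 reads per library. The further normalization is not known, so the true totals are not known either. The expression of the members rested on 6.75 reads per kb or more in every library, the lowest being *Runx1* in WT proliferative replicate 2 and the highest being *Runx2* at 342. The *Hoxd9*, *Hoxd10* and *Hoxd11* transcripts, whose frameshift alleles need not remove the RNA, were at 22.5 to 29.6, 39.6 to 52.1 and 25.1 to 35.4 NRPKM in *aadd* libraries, above all 9 WT libraries (at most 8.79, 23.3 and 7.31). *Hoxa11* was at 5.17 to 11.1 NRPKM in *aadd*, below the 11.3 to 30.5 of WT resting, while *Hoxa9* and *Hoxa10* overlapped WT resting. The cartilage markers (*Col2a1*, *Acan*, *Sox9* and 7 others) were present in all libraries, with summed NRPKM of 2594 to 3841 in WT resting, 3007 to 4924 in WT proliferative, 706 to 2996 in WT hypertrophic and 2365 to 3037 in *aadd*.

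WT hypertrophic replicate 1 stood apart from the other two libraries of its group. Over the genes tested, its root mean square log2 difference was 1.110 and 1.037 from replicates 2 and 3, which differed from each other by 0.613, and 0.748 to 0.941 from the WT proliferative libraries. The cartilage marker sum was 2996 NRPKM in replicate 1 and 706 and 1031 in replicates 2 and 3. The sum over 10 osteoclast markers was 51.5 against 1351 and 995, that over macrophage markers 30.7 against 411 and 354, and that over endothelial markers 20.8 against 303 and 210. In the 9 libraries of the other groups these 3 sums reached at most 36.7, 49 and 40.6. No osteoclast or endothelial marker stayed under 1 NRPKM in all 3 hypertrophic libraries. Calls and counts that changed without replicate 1 are therefore also given without it.

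*Shox2* was highest in resting and proliferative cartilage. It was at 63.4, 61 and 33.7 NRPKM in WT resting replicates 1, 2 and 3, at 56.2, 95.7 and 58 in WT proliferative, at 30.8, 16.3 and 15.47 in WT hypertrophic and at 3.33, 4.56 and 5.24 in *aadd*. The resting and proliferative libraries overlapped, all hypertrophic libraries lay below them, and all *aadd* libraries lay below every WT library. The means were 70 ± 22.3 (SD, n = 3) in WT proliferative, 52.7 ± 16.5 in WT resting, 20.8 ± 8.62 in WT hypertrophic and 4.37 ± 0.969 in *aadd*.

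*Runx3* had its highest and most even values in proliferative chondrocytes. It was at 39.4, 24.1 and 13.9 NRPKM in WT resting, 73.1, 67.8 and 64.2 in WT proliferative, 70.6, 14.2 and 18.1 in WT hypertrophic and 4.79, 4.64 and 5.6 in *aadd*. The proliferative libraries lay above all resting libraries. Hypertrophic replicate 1 was within the proliferative range, whereas replicates 2 and 3 were within the resting range. As for *Shox2*, every *aadd* library lay below every WT library. The coefficient of variation was 6.52% in WT proliferative, 10.3% in *aadd*, 49.8% in WT resting and 92% in WT hypertrophic.

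*Runx2*, a regulator of hypertrophy and bone formation, was ordered by compartment. It was at 41.1, 27.7 and 23.2 NRPKM in WT resting, 92.8, 69.2 and 80.6 in WT proliferative, 135, 102 and 115 in WT hypertrophic and 18.1, 31.3 and 23.5 in *aadd*. The 3 WT compartments did not overlap, and hypertrophic replicate 1 had the highest value of its group. The *aadd* libraries overlapped the WT resting libraries and lay below the proliferative ones.

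*Runx1* was the lowest of the Runx genes in the first 2 compartments. It was at 8.24, 9.35 and 10.4 NRPKM in WT resting, 5.61, 3.53 and 8.8 in WT proliferative, 6.81, 32.6 and 26.6 in WT hypertrophic and 9.63, 8.21 and 9.97 in *aadd*. Hypertrophic replicates 2 and 3 were above every other library and replicate 1 was among the proliferative values. *Runx1* was thus high in the libraries in which the osteoclast, macrophage and endothelial sums were high, and the part of these cells in its level was not tested.

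*Cbfb* stayed between 30 and 66.5 NRPKM over the 12 libraries. It was at 45.1, 30 and 32.9 NRPKM in WT resting, 51.6, 41.1 and 42.6 in WT proliferative, 65.2, 66.5 and 52 in WT hypertrophic and 43.1, 45.2 and 58.5 in *aadd*. The hypertrophic libraries lay above all WT resting and WT proliferative libraries, and the *aadd* libraries overlapped those of each WT compartment.

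**Figure D1:**
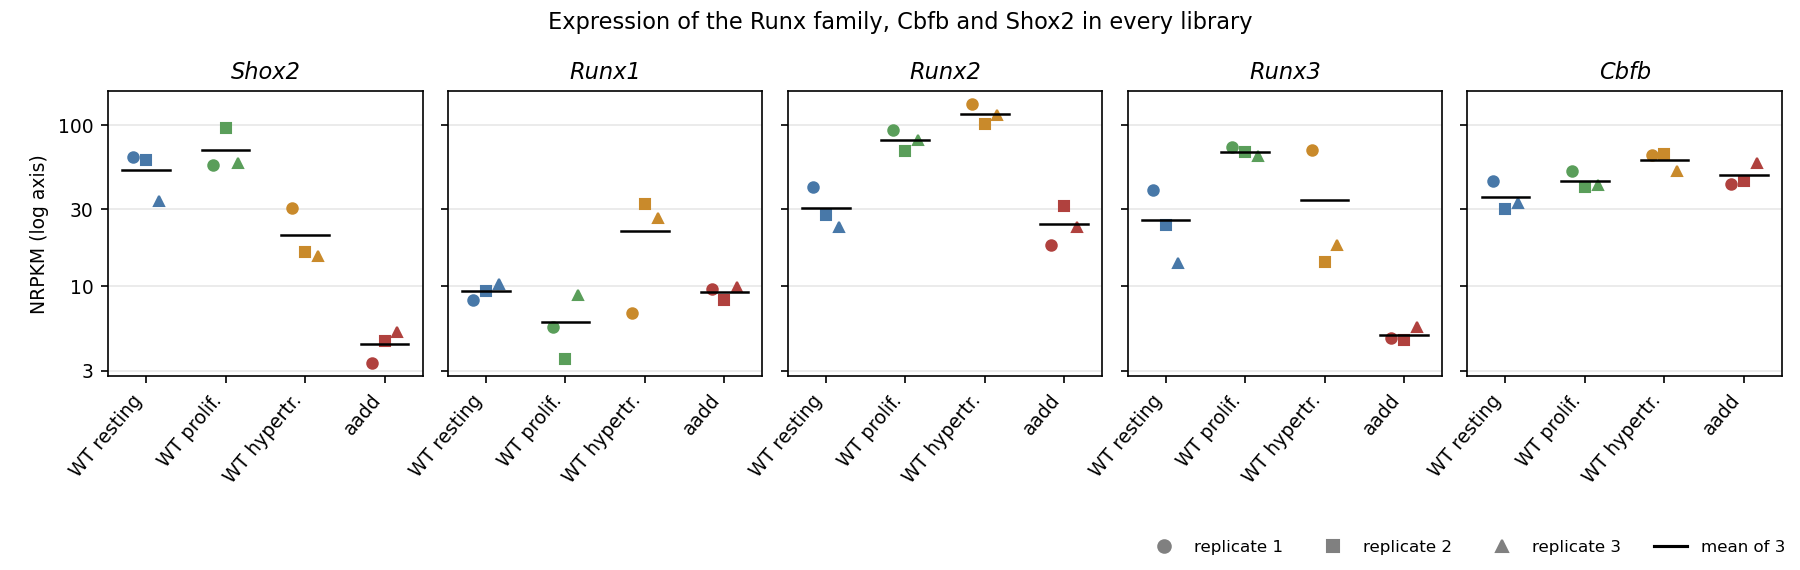
NRPKM (log axis) of the 5 genes in each of the 12 libraries, with markers for replicates and a line at the mean of 3. *Shox2* and *Runx3* in *aadd* (means of 4.37 and 5.01) lie below all WT values, and hypertrophic replicate 1 departs from replicates 2 and 3 for *Runx1* and *Runx3*.

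The summed expression of the 3 Runx genes was 65.8 ± 21 NRPKM (SD, n = 3) in WT resting, 155 ± 15.6 in WT proliferative, 174 ± 33.8 in WT hypertrophic and 38.6 ± 5.84 in *aadd*. No *aadd* library (32.5 to 44.2) reached the lowest WT resting library (47.4). *Runx3* made up 44.4%, 39.4% and 29.2% of the sum in WT resting libraries, 42.6%, 48.3% and 41.8% in WT proliferative, 33.3%, 9.51% and 11.3% in WT hypertrophic and 14.7%, 10.5% and 14.3% in *aadd*. *Runx3* held a smaller share in *aadd* and in hypertrophic replicates 2 and 3 than in any other library. *Runx2* was the most abundant in all 12 libraries, with 45.3% to 48.9% of the sum in WT resting, 49.2% to 54.1% in WT proliferative, 63.5% to 72% in WT hypertrophic and 55.7% to 70.9% in *aadd*. *Runx1* had 9.29%, 15.3% and 21.9% in WT resting, 2.51% to 5.73% in WT proliferative, 3.21% to 21.9% in WT hypertrophic and 18.6% to 29.6% in *aadd*, which overlapped WT resting. The ratio of the Runx sum to *Cbfb*, their partner, was 1.81 ± 0.324 in WT resting, 3.45 ± 0.143 in WT proliferative, 2.85 ± 0.54 in WT hypertrophic and 0.8 ± 0.16 in *aadd*. In NRPKM, *Cbfb* was thus above the Runx sum in the *aadd* libraries and below it in all WT libraries. These shares use *Runx3*, for which the set was chosen, and are given with no test.

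**Figure D2:**
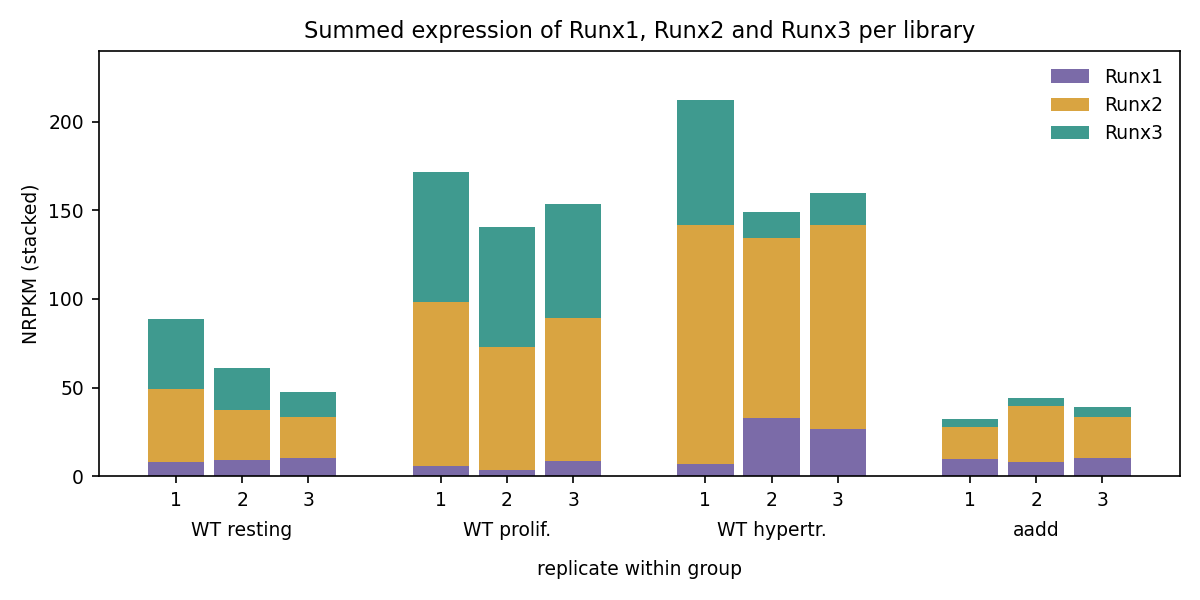
Stacked NRPKM of *Runx1*, *Runx2* and *Runx3* in each library, 3 per group. The sum is lowest in *aadd* (32.5 to 44.2) and highest in hypertrophic replicate 1 (212), which keeps the *Runx3* share (33.3%) that replicates 2 and 3 lack (9.51% and 11.3%).

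The first comparison asked how expression differs between resting and proliferative chondrocytes. *Runx2* rose in the proliferative compartment by 1.43 on the log2 scale (SE 0.25), 2.69-fold, with an unadjusted *P* of 0.001 in limma. Fold changes are on the log2(NRPKM + 0.1) scale. A gene passed when it met the study's criteria of *P* no higher than 0.05 and FC no lower than 2 (1.5 for *aadd*). The study's text names no adjustment of *P*, and *P* before adjustment was used here. After Benjamini-Hochberg adjustment over 10936 genes the limma adjusted *P* of *Runx2* was 0.086, and lay between 0.028 and 0.27 under other settings. The log2 fold change of *Runx1* was -0.72 (SE 0.33, limma *P* 0.069, adjusted 0.33) and that of *Cbfb* was 0.34 (SE 0.21, limma *P* 0.16, adjusted 0.45), and neither passed. Thus 1 of the 3 members tested passed as higher and 0 as lower, where 2.56% and 2.97% of all genes did. By adjusted *P*, 0 of 3 passed and 0.622% of all genes did. With the replicate number as a block the number of such genes went from 68 to 9, and *Runx2* kept its call (adjusted *P* 0.084 in limma). Under the block *Runx1* had a limma *P* of 0.048 (adjusted 0.24), under the fold limit, and *Cbfb* one of 0.078 (adjusted 0.29). *Shox2* and *Runx3* were selected with the resting libraries and are described only, at log2 fold changes of 0.42 and 1.53. Libraries of the 2 groups did not overlap for 2 of 5 members, *Runx2* and *Runx3*, and for 24% of all genes tested.

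The second comparison, of hypertrophic with proliferative chondrocytes, used no library of the *aadd* and WT resting groups whose values chose *Shox2* and *Runx3*. *Shox2* fell by 1.77 on the log2 scale (SE 0.36), 3.41-fold, with a limma *P* of 0.0023. Its adjusted *P* was 0.13, between 0.013 and 0.45 under other settings, and it passed the unadjusted criteria under all of them. *Runx1* rose by 1.68 (SE 0.66), 3.2-fold, with a limma *P* of 0.042 and an adjusted *P* of 0.25. The call of *Runx1* rested on single libraries, being lost without proliferative replicate 1 or 2 or hypertrophic replicate 2 or 3. *Runx3* had a log2 fold change of -1.38 (SE 0.60, limma *P* 0.059, adjusted 0.27), which did not pass, and did pass with all 12 libraries in 1 fit (limma *P* 0.026, adjusted 0.13). The log2 fold change of *Runx2* was 0.54 (SE 0.20, limma *P* 0.036, adjusted 0.24), under the fold limit, and that of *Cbfb* was 0.44 (SE 0.19, limma *P* 0.061, adjusted 0.28).

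In this comparison 1 of 5 members passed as higher and 1 of 5 as lower, where 5.32% and 4.34% of all genes did. By adjusted *P* in limma 0 of 5 members and 0% of all genes passed, although 2115 genes had an unadjusted *P* up to 0.05. With all 12 libraries in 1 fit 705 genes passed by adjusted *P*, *Shox2* among them (0.024 in limma). Groups did not overlap for 3 of 5 members, *Shox2*, *Runx2* and *Cbfb*, and for 24.2% of all genes. Without hypertrophic replicate 1, 3 of 5 members passed by adjusted *P*. The groups then overlapped for 0 of 5 members. No share of all genes is given for overlap at this setting, which has fewer libraries, so nothing is read from that count. *Runx3* then fell by 2.09 (SE 0.19), 4.25-fold, with a limma adjusted *P* of 0.0063. *Shox2* fell by 2.09 (SE 0.29) with an adjusted *P* of 0.013 in limma, and *Runx1* rose by 2.37 (SE 0.40) with an adjusted *P* of 0.021. *Runx2* and *Cbfb* were then at 0.43 and 0.39 and did not pass. Under other settings the limma adjusted *P* went up to 0.6 for *Runx3* and 0.57 for *Runx1*. The number of genes passing the criteria went from 1057 to 2007, which is 18.4% of all tested, and 17.4% passed by adjusted *P*. In the same libraries the cartilage markers were lower and the markers of osteoclasts, macrophages and endothelium were higher, and their part in the members' changes was not tested. In LCM samples, fewer cells of a type and less RNA per cell cannot be told apart.

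Between hypertrophic and resting chondrocytes, *Runx2* rose by 1.97 (SE 0.26), 3.91-fold, with a limma *P* of 0.0002 and an adjusted *P* of 0.013 (0.001 to 0.071 under other settings). Without hypertrophic replicate 1 the rise was 1.86 with an adjusted *P* of 0.0093 in limma. *Cbfb* had a log2 fold change of 0.78 (SE 0.22, limma *P* 0.011, adjusted 0.09), under the fold limit. *Runx1* had a log2 fold change of 0.95 (SE 0.58, limma *P* 0.15, adjusted 0.34), and 1.65 (SE 0.19, limma adjusted *P* 0.0043) without hypertrophic replicate 1, so that library decided the call. Under other settings its limma adjusted *P* went up to 0.66. Of the 3 members tested 1 passed as higher and 0 as lower, where 5.84% and 7.2% of all genes did, and 1 of 3 passed by adjusted *P*, as did 6.36% of all genes. With hypertrophic replicate 1 left out, 2 of 3 passed as higher and by adjusted *P*, where 19.2% of all genes passed the criteria and 24.2% passed by adjusted *P*, and *Cbfb* was at 0.73. *Shox2* and *Runx3* are described only. *Shox2* stood at -1.35, or -1.67 without replicate 1, and *Runx3* at 0.15, or -0.56 without it, so its direction turned. Groups did not overlap for 3 of 5 members, *Shox2*, *Runx2* and *Cbfb*, and for 32% of all genes. Without replicate 1 they did not overlap for 4 of 5 members. No share of all genes is given for overlap at that setting, so nothing is read from this count.

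The comparison of *aadd* with WT resting chondrocytes asked how expression differs between these groups, in which genotype and the cells captured cannot be told apart. Its values chose *Shox2* and *Runx3*. The log2 fold change was -3.53 for *Shox2*, 11.5-fold lower, and -2.22 for *Runx3*, 4.66-fold lower. It was -0.33 for *Runx2*, -0.01 for *Runx1* and 0.45 for *Cbfb*, whose libraries overlapped those of WT resting. Over the alternatives *Shox2* ranged from -3.82 to -3.28 and *Runx3* from -2.60 to -1.85. Libraries did not overlap for 2 of 5 members, where 15.4% of all genes did not, and 3.78% of all genes passed the criteria as higher and 2.78% as lower. These shares are given beside the members, and nothing is read from them. The summed NRPKM of hypertrophic chondrocyte markers was 34.9 to 46.8 in *aadd* and 48.4 to 61.7 in WT resting. Without *Panx3* the sums overlapped, at 34.1 to 45.4 and 40.6 to 43.5, and of 9 tested markers 0 passed as higher and 1, *Panx3*, as lower (median 0.01). All 10 cartilage markers had negative log2 fold changes (median -0.32), 0 of them passing, where *Runx2* was at -0.33. The perichondrial sum overlapped, at 439 to 1150 in *aadd* and 382 to 758 in WT resting, but 8 of 10 markers had positive log2 fold changes (median 0.55, all genes 0.01). *Igf1* (2.65), *Aspn* (1.55) and *Ogn* (0.88) passed as higher, 0 passed as lower and none passed by adjusted *P*. The skeletal muscle sum was 33.9, 49.4 and 15.9 in *aadd* and 6.67, 7.66 and 15.4 in WT resting, without overlap, and reached 95.2 in WT proliferative replicate 3. The part of cartilage, perichondrium and muscle in the members' values was not tested.

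**Figure D3:**
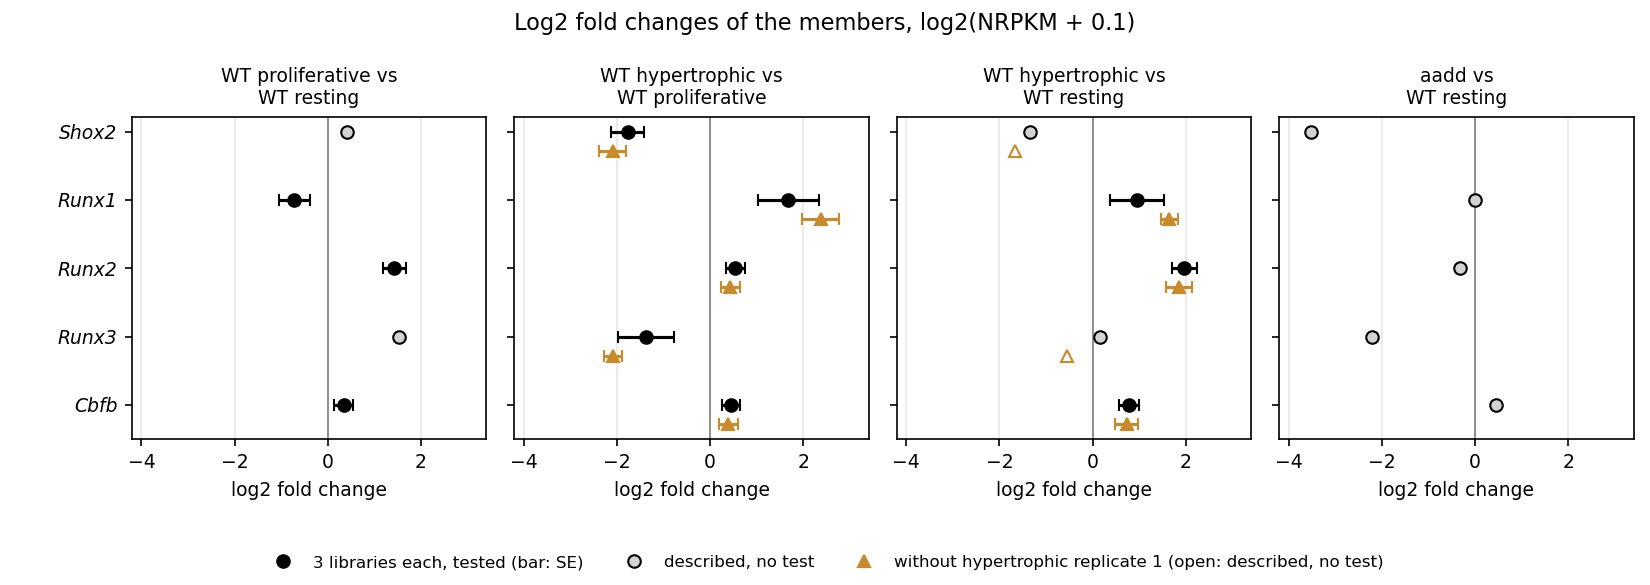
Log2 fold changes of the 5 genes in the 4 comparisons, with SE bars where a test was made and grey points where values are described only. Triangles leave out hypertrophic replicate 1, which moves *Runx3* in hypertrophic against proliferative chondrocytes from -1.38 to -2.09 and *Runx1* from 1.68 to 2.37.

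Genes that work with Runx proteins were read next, in lists chosen with earlier results of these data known. Of 12 partners (co-repressors of the Tle and Runx1t1 families, co-activators and proteins that bind Runx2), 11 were expressed enough to test. *Maf*, a bZIP factor of terminal chondrocyte differentiation, was at 5.56, 3.69 and 6.02 NRPKM in WT resting, 36.6, 13.1 and 28.3 in WT proliferative, 55.5, 43.5 and 35 in WT hypertrophic and 4.37, 12.2 and 10.2 in *aadd*. Its proliferative and hypertrophic libraries lay above all resting ones. *Maf* rose by 2.24 from resting to proliferative (limma adjusted *P* 0.087), whereas *Runx1t1*, a co-repressor known from its fusion to RUNX1 in leukaemia, fell by 1.21 (adjusted 0.18). *Tle2*, a Groucho co-repressor, was at 2.74, 2.76 and 2.86 NRPKM in WT proliferative and 4.73, 10.1 and 11.1 in WT hypertrophic. It met the filter only with its hypertrophic libraries, so its calls for that group are counted but not read as support. *Maf* at 0.87 did not pass from proliferative to hypertrophic.

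From resting to proliferative 1 partner passed as higher and 1 as lower, where 2.56% and 2.97% of all genes did. The median log2 fold change was -0.24 beside -0.06 over all genes. From proliferative to hypertrophic 1 passed as higher and 0 as lower (median 0.20, all genes 0.04), where 5.32% and 4.34% of all genes did. Without replicate 1 the counts were 2 and 1, where 18.4% of all genes passed the criteria. Between hypertrophic and resting 2 passed as higher, *Maf* (3.11, limma adjusted *P* 0.0038) and *Tle2*, with overlapping libraries, and 2 as lower, *Runx1t1* (-1.74, limma adjusted *P* 0.075) and *Tle1* (-1.16, adjusted 0.055). Of all genes 5.84% passed as higher and 7.2% as lower. Without hypertrophic replicate 1 there were again 2 and 2 partners, where 19.2% of all genes passed the criteria. By adjusted *P* 5 partners passed in place of 1, and 24.2% of all genes did in place of 6.36%. *Tle1* (-0.93) then lost its call and *Tle4* (-1.40, limma adjusted *P* 0.023) gained one. In *aadd* 3 partners passed as higher and 1 as lower (median 0.09, all genes 0.01), where 3.78% and 2.78% of all genes did, and none passed by adjusted *P*. The co-repressor genes *Runx1t1*, *Tle1* and *Tle4* were higher by 0.91, 0.66 and 0.94, while *Tle3* was lower by 1.25 (limma adjusted *P* 0.25 to 0.38).

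Of 13 genes whose products restrain Runx2, 12 were tested. *Zfp521*, a zinc finger protein that represses Runx2 activity, was at 67.3, 86.6 and 81.5 NRPKM in WT resting, 44.7, 34.3 and 57.1 in WT proliferative, 25.3, 24.4 and 24.2 in WT hypertrophic and 81.4, 87.7 and 69.8 in *aadd*. The WT compartments were in the opposite order to *Runx2*, with no overlap between WT compartments, and the *aadd* range overlapped that of WT resting. *Zfp521* fell by 1.66 between hypertrophic and resting (limma adjusted *P* 0.0058). *Hdac4*, a deacetylase that holds back hypertrophy, fell by 1.02 (adjusted 0.069), and *Twist1*, a bHLH inhibitor of Runx2, rose by 2.40 (limma adjusted *P* 0.026). *Foxp2* also passed as lower there, by 1.95, with overlapping libraries (adjusted 0.18). When hypertrophic replicate 1 was left out, 2 brakes passed as higher and 2 as lower, where 19.2% of all genes passed the criteria. By adjusted *P* 4 brakes passed in place of 2, and 24.2% of all genes did in place of 6.36%. *Hdac4* (-0.95) then lost its call and *Hdac5*, a related deacetylase, gained one as higher (1.19, limma adjusted *P* 0.02).

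From resting to proliferative 0 brakes passed as higher and 1, *Foxp1*, as lower (-1.07, limma adjusted *P* 0.26), a call lost under the replicate block, with a median of -0.73 beside -0.06 over all genes. The shares of all genes that passed as higher and as lower were 2.56% and 2.97%. The log2 fold change of *Stub1*, a ubiquitin ligase, was -1.11 and did not pass. From proliferative to hypertrophic *Smurf1*, a ubiquitin ligase for Runx2, rose by 1.09 and *Twist1* by 1.68 (limma adjusted *P* 0.15 and 0.24), with a median of 0.12, and *Stub1* at 1.24 did not pass. There 2 passed as higher and 0 as lower, where 5.32% and 4.34% of all genes did. Without hypertrophic replicate 1 the counts were 3 and 2, where 18.4% of all genes passed the criteria. In *aadd* 3 passed as higher and 1 as lower, where 3.78% and 2.78% of all genes did, and none passed by adjusted *P*. One of the 3, *Hand2*, was at 10.7, 7.12 and 11.5 NRPKM in *aadd* and 3.79, 0.186 and 3.33 in WT resting. It met the filter through the *aadd* libraries alone and so had to differ, and its call is not read as support. *Twist1* (1.39, adjusted 0.25) and *Foxp1* (0.97, adjusted 0.38) were also higher in limma, and the 1 lower was *Twist2*, with 8.77, 7.2 and 0.894 NRPKM in WT resting, 0.693 in *aadd* replicate 2 and a listed 0 in replicates 1 and 3. *Twist2* met the filter only with its WT resting libraries, so this call is not read as support either.

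Genes regarded as Runx targets in cartilage and bone were read in the same way. Of 15 listed, 13 were tested, and *Bglap* and *Bglap2* did not pass the filter. *Mmp13*, *Galnt3* and *Phex* met the filter only with their hypertrophic libraries, so the counts and medians for that group, which include them, are descriptions. From resting to proliferative 8 passed as higher and 1 as lower, where 2.56% and 2.97% of all genes did. By adjusted *P* 5 of them passed, as did 0.622% of all genes. The median log2 fold change was 2.66 beside -0.06 over all genes. *Ihh*, the hedgehog ligand of prehypertrophic cells, rose by 5.58 (limma adjusted *P* 0.0087) and *Alpl*, which encodes the alkaline phosphatase of mineralizing cells, by 5.37 (adjusted 0.023). Their WT resting values were near the floor, at 0.275 to 0.783 and 0.466 to 1.61 NRPKM. The size of both changes therefore depends on the 0.1 added before logs were taken. Under the replicate block 8 and 1 passed, but 2 by adjusted *P* in place of 5, and *Ihh* and *Alpl* were at 0.054 and 0.069 in limma. *Ibsp*, a bone matrix sialoprotein, *Panx3*, a channel protein, and *Col10a1*, the collagen of hypertrophic cells, rose by 4.70, 4.61 and 4.48, and *Sp7*, *Galnt3* and *Phex* by 4.10, 2.66 and 1.78. *Tnfrsf11b*, the decoy receptor that limits osteoclast formation, fell, from 7.22 to 10.8 NRPKM in WT resting to 3.27 to 6.31 in WT proliferative (limma adjusted *P* 0.19). From proliferative to hypertrophic 6 passed as higher and 0 as lower (median 1.31), namely *Spp1* (4.44, or 6.25 without hypertrophic replicate 1), *Phex* (3.21), *Ibsp* (2.63), *Alpl* (1.84), *Col10a1* (1.45) and *Galnt3* (1.31), none by adjusted *P*. Of all genes 5.32% passed as higher and 4.34% as lower.

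*Mmp13*, a collagenase of late hypertrophic cells, had 735 and 661 NRPKM in hypertrophic replicates 2 and 3 and 3.05 in replicate 1, with 3.81, 4.12 and 6.24 in WT proliferative. Its log2 fold change of 4.61 did not pass and was 7.21 without replicate 1. Without that library 7 targets passed as higher and 1, *Ihh* (-1.21), as lower, and 6 of the 13 had a limma adjusted *P* under 0.05, at a setting where 18.4% of all genes passed the criteria and 17.4% passed by adjusted *P*. Between hypertrophic and resting 10 passed as higher and 0 as lower, where 5.84% and 7.2% of all genes did. By adjusted *P* 8 passed, as did 6.36% of all genes. The median was 4.99, with *Ibsp* (7.34) and *Alpl* (7.21) leading, the latter from WT resting values near the floor. *Ihh*, *Mmp13*, *Sp7*, *Spp1*, *Panx3*, *Phex*, *Col10a1* and *Galnt3* were the others. Without hypertrophic replicate 1 the counts were again 10 and 0, with 10 by adjusted *P* and a median of 4.83, where 19.2% of all genes passed the criteria and 24.2% passed by adjusted *P*. *Mmp13* went from 5.36 to 7.95. The summed osteoblast markers were 175 to 381 NRPKM in WT resting, 331 to 816 in WT proliferative and 791 to 2866 in WT hypertrophic, so the resting and proliferative sums overlapped. The summed hypertrophic chondrocyte markers were 48.4 to 61.7 NRPKM in WT resting, 593 to 893 in WT proliferative and 1788 to 2841 in WT hypertrophic. Several targets are themselves osteoblast or hypertrophic markers, and the part of osteoblasts was not tested.

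Between *aadd* and WT resting, 9 of the 13 targets did not pass, 1 passed as higher and 3 as lower (median -0.22, all genes 0.01), none by adjusted *P*. Of all genes 3.78% passed as higher and 2.78% as lower. *Galnt3* was higher by 1.52, from 0.319 to 1.19 NRPKM in WT resting to 1.51 to 2.56 in *aadd*. *Panx3* was at 21.1, 7.02 and 6.02 NRPKM in WT resting and 0.856, 1.44 and 4.39 in *aadd*, with no overlap (-2.37, limma adjusted *P* 0.33). *Tnfrsf11b* and *Vegfa* were lower by 0.79 and 0.66 (limma adjusted *P* 0.47 and 0.51). Of 14 target promoter windows, 4 (28.6%) held a Runx core, as did 0 of 11 for the partners, 0 of 13 for the brakes and 2 of 13 (15.4%) for the Shox2-linked genes, beside 10.4% for genes tested.

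**Figure D4:**
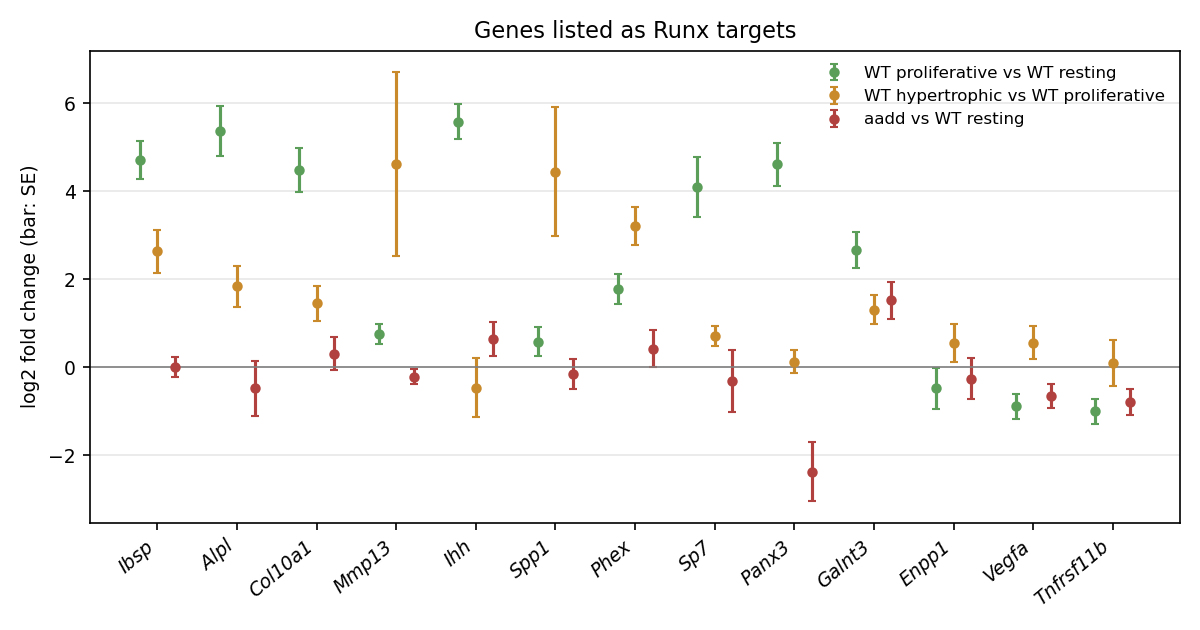
Log2 fold change with SE of the 13 Runx target genes tested, in 3 comparisons, ordered by their change between hypertrophic and resting. Most values are high from resting to proliferative (median 2.66) and near 0 for *aadd* against WT resting (median -0.22), with wide bars for *Mmp13* and *Spp1* where hypertrophic replicate 1 departs.

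Of 10 genes linked to Shox2 in limb, 8 were tested and *Nppb* and *Isl1* did not pass the filter. From proliferative to hypertrophic the median was -1.51 beside 0.04 over all genes. There, where 5.32% of all genes passed as higher and 4.34% as lower, 0 passed as higher and 5 as lower. These were *Sox5* (-3.17), *Sox9* (-2.42) and *Sox6* (-1.33), the transcription factors of cartilage identity, *Acan* (-1.69), which encodes aggrecan, and *Fgfr3* (-1.73), a receptor that restrains growth plate proliferation. None passed by adjusted *P*. Of the 10 cartilage markers, which include *Sox9* and *Acan*, 9 passed as lower in the same comparison (median -1.75), or 10 without replicate 1 (median -2.57), and their part in these values was not tested. *Sox9* was at 164, 180 and 170 NRPKM in WT proliferative and 143, 12.9 and 17.6 in WT hypertrophic, so that replicate 1 stayed close to the proliferative level. Without that library 6 passed as lower, 5 by adjusted *P*, with *Tbx5* as the sixth (-1.65). At that setting 18.4% of all genes passed the criteria and 17.4% passed by adjusted *P*. *Sox5*, *Sox9*, *Sox6*, *Acan* and *Fgfr3* were then at -4.44, -3.49, -1.91, -2.23 and -2.33. *Shox2* itself was at 30.8 NRPKM in replicate 1, between the proliferative libraries and the other hypertrophic ones.

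From resting to proliferative *Bmp4*, a growth factor, rose by 1.59 and *Tbx5*, a forelimb transcription factor, fell by 1.96 (limma adjusted *P* 0.11 and 0.086), with a median of 0.19. Between hypertrophic and resting 5 passed as lower, *Sox5* (-3.58), *Tbx5* (-3.07), *Sox9* (-2.35), *Sox6* (-1.59) and *Acan* (-1.37), and *Bmp4* passed as higher (1.90). *Tbx5* and *Bmp4* passed by adjusted *P* in limma (0.018 and 0.045). The shares of all genes were 7.2% as lower, 5.84% as higher and 6.36% by adjusted *P*. Without hypertrophic replicate 1, 6 passed as lower and 1 as higher, 7 by adjusted *P*, with *Fgfr3* (-1.72, limma adjusted *P* 0.0018) as the sixth, beside the same 19.2% and 24.2% of all genes. In *aadd*, where *Shox2* was lowest, 1 of 8 passed, *Bmp4* as higher (0.87, limma adjusted *P* 0.51), and *Acan* at -0.56 did not. Of all genes 3.78% passed as higher and 2.78% as lower there. *Fgfr3* (-0.43) and *Tbx5* (0.42) were under the fold limit although their libraries did not overlap, with *Fgfr3* at 37.3 to 48.7 NRPKM in *aadd* and 58.8 to 60.6 in WT resting and *Tbx5* at 90.9 to 104 and 70.1 to 74.9. *Sox9* was at 141, 145 and 186 NRPKM in *aadd* and 174, 160 and 156 in WT resting, with overlap.

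**Figure D5:**
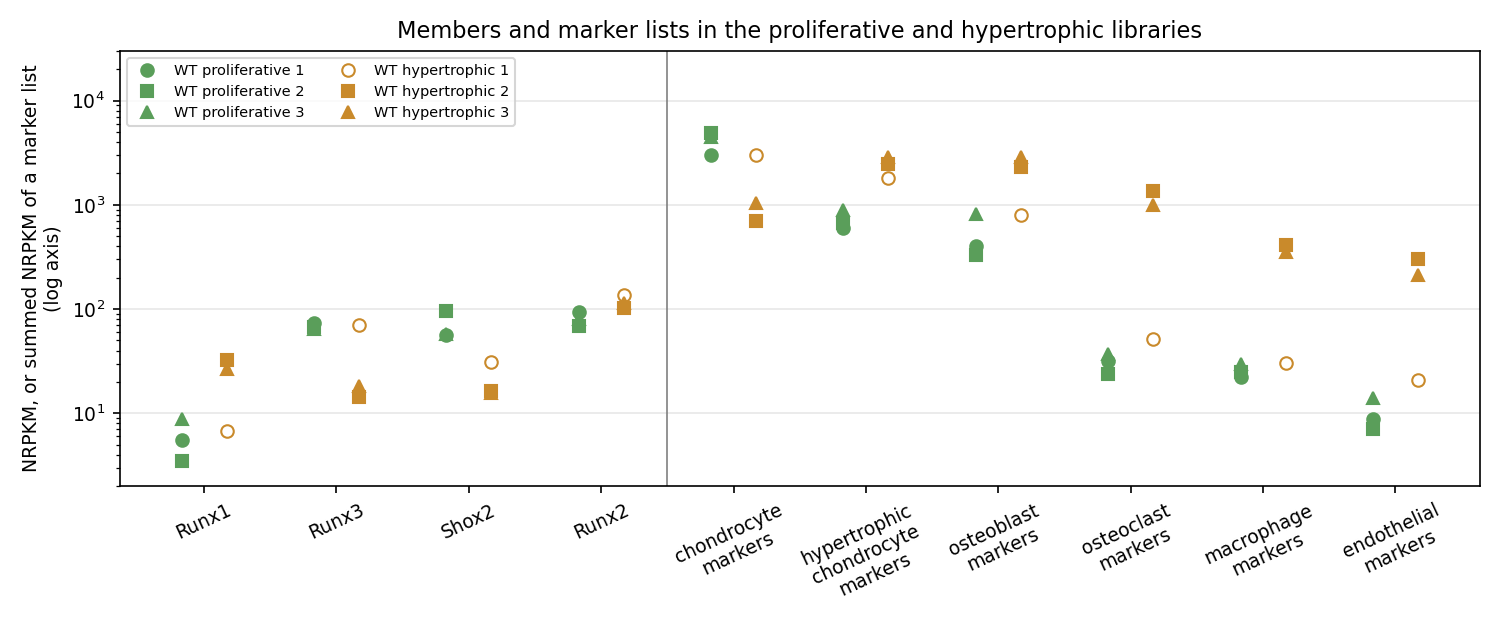
NRPKM of 4 members and summed NRPKM of 6 marker lists (log axis) in the WT proliferative and WT hypertrophic libraries. Hypertrophic replicate 1 (open circle) is near the proliferative libraries for *Runx1* (6.81) and *Runx3* (70.6) and for cartilage markers (2996), with osteoclast markers at 51.5 against 1351 and 995.

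The genes with the most similar profile were found by the root mean square difference of log2(NRPKM + 0.1), centred per gene, over 12 libraries. For *Shox2* these were *Lef1* (0.499), which encodes a Wnt-responsive transcription factor, *Sh3tc2* (0.643) and *Runx3* (0.702), where the median over all genes tested was 1.647. *Shox2* was in turn the second nearest gene to *Runx3*, after *Zfp185* (0.683) and before *Gper1* (0.752). *Shox2* and *Runx3* share the drop in *aadd* for which both were chosen. *Lef1* was at 26.6, 37 and 15 NRPKM in WT resting, 20.6, 17.3 and 13.6 in WT proliferative, 9.12, 5.2 and 6.3 in WT hypertrophic and 2.12, 1.79 and 2.31 in *aadd*. Unlike *Runx3*, *Lef1* and *Shox2* were below all proliferative libraries in each hypertrophic library.

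For *Runx2* the nearest were *Lbh* (0.320), *Chd7* (0.331) and *Rasa3* (0.351), with *Lbh* at 62.7, 49.9 and 52.3 NRPKM in WT proliferative and 92.6, 71.6 and 69.8 in WT hypertrophic. For *Runx1* the nearest were *Gm2a* (0.217), *Sipa1* (0.253) and *Zfp710* (0.306), and each was higher in hypertrophic replicates 2 and 3 than in any other library. For *Cbfb* the nearest were *Mtpn* (0.094), *Commd8* (0.108) and *Synj1* (0.109). With 1 minus Pearson correlation in place of the difference, 1 of the 3 genes was kept for *Shox2*, 2 for *Runx1*, 0 for *Runx2*, 0 for *Runx3* and 3 for *Cbfb*. The nearest genes of *Shox2*, *Runx2* and *Runx3* therefore depend on the measure.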

How the data were processed

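RNA-Seq values of 12 libraries (3 per group) were analysed. The authors captured cells by LCM, amplified 20 ng of RNA, removed multiply aligned and duplicate reads, and computed values in GeneSpring on build mm10. The submitters' processing notes also name TopHat. The deposited values are RPKM with a further normalization between libraries that is not given in the sources used here (NRPKM). Genes with at least 5 NRPKM in 3 of 12 libraries (10936 of 36186 rows) entered limma 3.58.1 (R 4.3.3) on log2(NRPKM + 0.1), with 6 libraries per comparison and Benjamini-Hochberg adjustment over all genes tested. The test was also run on simulated data with independent noise in each library, no pairing and no outlying library. That check does not cover these features of the real libraries. Plots were drawn with matplotlib 3.10.9, and tables were made with pandas 2.3.3 and numpy 2.4.6 in Python 3.11.15.

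Members and lists were chosen with earlier results of these data known. 1 list gene is not reported here and was left out of the lists. List genes are named where they passed with libraries that did not overlap, or were among the top 2 per list and comparison. Likeness names 3 genes per member. Depth was computed from 1746 genes with row spans under 2500 bases. In these, 81.5% to 91.9% of values lay within 0.01 of whole reads, and counting error alone is covered by it. For WT resting against WT proliferative, deviations of libraries with the same number correlated across genes (*r* = 0.281, 0.179 and 0.198). A fit with the replicate number as a block was therefore also made. Values are from the fit without the block, and the blocked value is given where it changes a call or a count. For *aadd* against WT resting, which come from different embryos, *r* was 0.051, 0.280 and -0.097. A correlation of this size therefore does not show that libraries share an embryo. Between WT hypertrophic and the other WT groups *r* lay between -0.058 and 0.124. Alternatives were a pseudocount of 1, no filter, a filter over the libraries compared, median-of-ratios and quantile scaling, 1 fit of 12 libraries, the replicate block, a variance trend, and each library left out.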

Additional observations from a re-analysis of the deposited data

How the results depend on the processing

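Of 11 member results with a test, 7 kept their direction and their side of the criteria under all 14 alternatives of their comparison, and none of the 11 turned direction. *Runx1* in hypertrophic against proliferative chondrocytes lost its call without a filter (1.68), and ranged from 1.25 to 2.37 with 1 library left out. *Runx3* there gained a call with all 12 libraries in 1 fit, with the variance trend and with the replicate block (-1.38 in each, with an unadjusted limma *P* of 0.048 under the block), and ranged from -2.09 to -0.93 with 1 library left out. *Runx1* ranged from -1.04 to -0.40 in proliferative against resting, with a call only without proliferative replicate 3, and from 0.53 to 1.65 in hypertrophic against resting. The cause was not tested. Without a filter the genes passing the criteria numbered 1632 in proliferative against resting, 2120 in hypertrophic against proliferative, 2769 in hypertrophic against resting and 1300 in *aadd* against resting, from 605, 1057, 1426 and 717, with more rows tested. With 1 library left out they ranged from 508 to 809, from 658 (without hypertrophic replicate 3) to 2007 (without replicate 1), from 1196 to 2105 and from 547 to 997. Under the replicate block they were 671, 1026, 1466 and 789, and the genes with an adjusted *P* under 0.05 went from 68, 0, 696 and 13 to 9, 0, 241 and 0. Apart from *Runx3* above, the replicate block changed no call of a member. Outside resting and proliferative the libraries share only a number.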
